A study of Caenorhabditis elegans with 15 samples.

Results

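The histone genes were followed in RNA from dissected intestines of Caenorhabditis elegans, as all genes whose name in the deposited transcript map begins with his-. There were 72 such genes, with 76 transcripts, among 46904 genes in all. The 3 groups had 5 libraries each. The gas-1 cest-2.2 OE strain, abbreviated to OE, carries gas-1(fc21) and overexpresses cest-2.2, a gene of the carboxylesterase family. The gas-1 strain carries gas-1(fc21), a mutation of a complex I subunit of the respiratory chain, and the last group was wild type. OE and gas-1 intestines share the gas-1(fc21) allele, the labels give no promoter for the overexpression, and the overexpressing strain is labelled as 1 line. Worms of all 3 groups were grown on the bacterium OP50 and were 5 days old, and each library was made from 20 pooled intestines. Nothing in the labels says that the samples came from separate cultures, so p-values measure the spread between these samples.

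Histones H2A, H2B, H3 and H4 form the nucleosome core around which DNA is wound, and H1 binds the linker DNA between nucleosomes. Most of their genes lack introns, lie in clusters, are transcribed when DNA is replicated, and give mRNAs that end in a stem-loop, without a poly(A) tail, bound by the stem-loop binding protein CDL-1. A smaller set, which includes the H3.3 genes, is transcribed outside of S phase and gives polyadenylated mRNA. In the adult worm the somatic cells no longer divide and the germline does. The libraries were made by Smart-seq2, which primes cDNA from poly(A) tails, so that mRNAs ending in a stem-loop are captured poorly and the levels below are those of the captured RNA.

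By class the 72 members were 1 gene for H1, 17 for H2A, 16 for H2B, 15 for H3, 5 for the H3 variant H3.3 and 16 for H4, with his-39 and his-73 left unclassed. Classes were set from the known family of each gene, and the coding length was the one of its class in 64 of 64 H2A, H2B, H3 and H4 genes. The members lay at 16 loci of the WBcel235 genome, a locus being a run of histone genes with gaps of at most 100000 bases. A single exon held 64 of them, and the 8 with more than 1 exon were his-24, his-35, his-37, his-41, his-57, his-71, his-72 and his-74. A count in at least 1 library was present for 69 members, and his-39, his-70 and his-73 were at 0 in all 15 libraries. Only 35 members had enough counts to be tested, so that counts of calls below say nothing of the other 37.

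Libraries held 12785262 to 45896053 estimated counts in OE, 12607565 to 17688689 in gas-1 and 12182697 to 40045140 in wild type. Histone genes took 0.00869 to 0.0264% of them in OE, 0.0264 to 0.0376% in gas-1 and 0.0198 to 0.0408% in wild type. As a check of the overexpression, cest-2.2 averaged 121 ± 42.7 CPM in OE, 56.1 ± 24.2 CPM in gas-1 and 42.2 ± 17.4 CPM in wild type (SD, n = 5 each). CPM are counts scaled to the same total in each library, with totals adjusted by TMM. Its log2 change of 1.11 ± 0.33 in OE against gas-1 did not pass the threshold (adjusted p = 0.109, edgeR's quasi-likelihood test with Benjamini-Hochberg adjustment), and its log2 change of 1.52 ± 0.34 in OE against wild type did (adjusted p = 0.0112). The fc21 allele is a mutation, so the RNA level of gas-1 itself does not check the labels. The 11 intestine markers were all tested, and their summed level was 61470 to 204500 CPM in OE, 79270 to 134800 CPM in gas-1 and 33380 to 96320 CPM in wild type.

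Copies of histone genes had equal counts in every library in 9 sets, which hold 23 genes. Counts were called equal when they differed by at most 0.01. In the chromosome II array these were the H3 pair his-9 and his-13, the H4 trio his-10, his-14 and his-26, and the H2B pair his-15 and his-44. In the long chromosome V cluster they were the H2A genes his-19, his-21, his-51 and his-53, the H2B genes his-20, his-22, his-52 and his-54, the H3 pair his-27 and his-49, and the H4 pair his-28 and his-50. In a cluster of 6 genes on chromosome IV they were the H2B pair his-29 and his-34 and the H2A pair his-30 and his-33. In some sets most of the equal counts were 0. The pair his-29 and his-34 had a count in only 1 library, and his-30 and his-33 in 2. The pairs his-9 and his-13, and his-28 and his-50, had one in 3 libraries each. The trio his-10, his-14 and his-26 had counts in all 15. All 23 had a deposited length equal to their coding length, that is, without an untranslated region. Each set is 1 measurement, and the 69 members with a count gave 55 separate ones. Counts and medians over members below still count every copy, except where equal copies are said to count once or to be summed.

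Another 2 pairs were equal in most libraries and split all or nothing in the rest. The H2A genes his-12 and his-43 had equal estimated counts in 13 libraries, while gas-1 library 2 gave 344.8 to his-12 and 0.1 to his-43, and wild type library 3 gave 127.7 to his-12 and 0 to his-43. The H4 genes his-46 and his-56 were equal in 14 libraries, while wild type library 2 gave 0 to his-46 and 141 to his-56. In these 3 libraries the level of a single copy cannot be read. In the other libraries the copies of a pair hold equal counts, so no copy can be read alone there either. The sum of each pair can be read in every library, and sums are given beside the single genes below. Ensembl release 115 gives another symbol than the deposited map to 22 of the 72 members, such as his-14 for his-10 and his-26, so members were matched by gene ID.

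**Figure D1:**
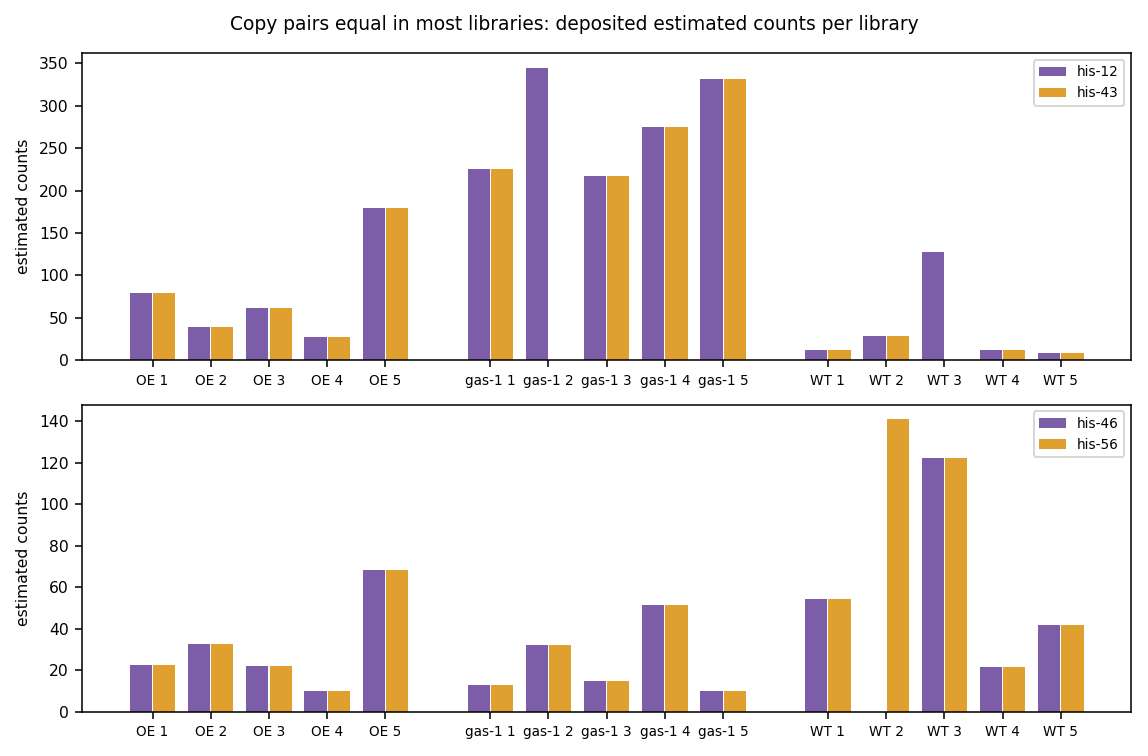
Deposited estimated counts (vertical axes) of the nearly equal pairs his-12 and his-43 (top) and his-46 and his-56 (bottom), 1 pair of bars per library, with gas-1 cest-2.2 OE left, gas-1 in the middle and wild type (WT) right. The bars of a pair are equal except in gas-1 library 2 and wild type library 3 for his-12 and his-43 and in wild type library 2 for his-46 and his-56, where 1 copy holds nearly all counts.

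In gas-1 against wild type, 8 of the 35 tested histone genes rose and 1 fell, and 26 did not pass the threshold of an adjusted p of 0.05. Across all 10585 tested genes 12.8% rose, 8.63% fell and 21.4% changed in either direction. With equal copies counted once, the 35 tested members were 32 measurements. In a fit with equal copies summed, 6 of 33 tested rose and 1 fell. The risers were his-10, his-11, his-12, his-14, his-25, his-26 and his-43, which all lie in 1 array on chromosome II, and the H4 gene his-37 on chromosome V. The gene that fell was the H2B gene his-48 on chromosome IV. His-12 and his-43 among the risers are a nearly equal pair, and with such pairs summed too, 5 of 31 tested rose and 1 fell. On log2(TPM + 1), which moves the median of all genes by -0.21, 10 of 39 tested members rose and 4 fell, with 2839 genes called in all. The log2 changes ran from -1.19 to 4.56. Their median was 0.35, against -0.11 over all tested genes, but it was 0.01 with equal copies summed. It lay below 0 in some alternatives, with -0.06 on log2(TPM + 1) and -0.76 without a filter on low counts. In 7 members all gas-1 libraries lay above all wild type libraries, as in 9.62% of all tested genes, and in none did all lie below, as in 6.28%. The 7 include his-10, his-14 and his-26, which are 1 measurement. DESeq2 called 10 members higher and 1 lower, with 28.5% of all tested genes called, and 13 members had an unadjusted p under 0.05, against 37.9% of all tested genes.

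The chromosome II array spans 10938 bases (II:13817760-13828697) and holds 13 genes, namely 3 for H2A, 3 for H2B, 4 for H3 and 3 for H4, each on a single exon. Its summed level was 31.6, 19.01, 31.7, 29.9 and 27.5 CPM in the 5 OE libraries. It was 74.7, 77.1, 83.1, 74.04 and 105 CPM in the 5 gas-1 libraries. In the 5 wild type libraries it was 6.69, 6.55, 9.16, 10.6 and 3.94 CPM. All gas-1 libraries lay above all OE libraries, and all OE libraries lay above all wild type libraries. The means were 27.9 ± 5.26 CPM in OE, 82.9 ± 13.1 CPM in gas-1 and 7.39 ± 2.59 CPM in wild type (SD, n = 5 each), with ratios of means of 11.2 for gas-1 against wild type, 0.337 for OE against gas-1 and 3.78 for OE against wild type. No test was made of sums over members.

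In TPM, which divides counts by transcript length before scaling to a common total, the array stood in the same order, at 85.7 to 115 TPM in OE, 327 to 382 TPM in gas-1 and 23.2 to 42.2 TPM in wild type. It made up 8.99 to 20.9% of all histone CPM in OE, 21.9 to 29.3% in gas-1 and 1.83 to 4.72% in wild type. Of its 13 genes 10 had enough counts to be tested, and a gene of low counts can pass that filter through the group in which it is high, so the signs over the tested genes are not read as a result. Of the 10, 7 rose past the threshold in gas-1 against wild type, where 12.8% of all tested genes did. The 7 amount to 5 measurements when equal copies count once. The nearly equal his-12 and his-43 still count separately in these 5. With nearly equal copies summed too, 5 of the 31 histone genes then tested rose, his-37 outside the array among them. That fit called 2265 genes in all. His-9 and his-13, an H3 pair, had at most 4.2 counts in a library, and the H3 gene his-42 at most 3.3.

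**Figure D2:**
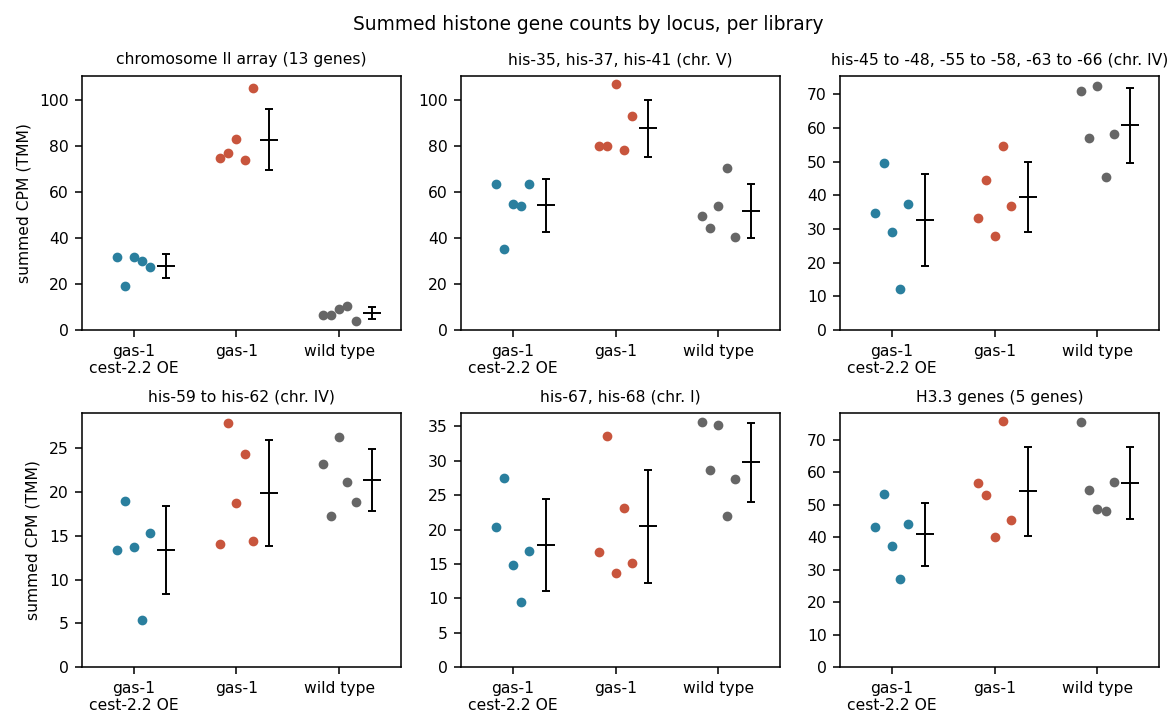
Summed CPM (vertical axes, linear, from 0) of 5 histone loci and of the 5 H3.3 genes, with 1 point per library, a bar at the mean and whiskers of 1 SD, for gas-1 cest-2.2 OE, gas-1 and wild type from left to right. The chromosome II array has 3 groups that do not overlap, at 19.01 to 31.7, 74.04 to 105 and 3.94 to 10.6 CPM, and the locus of his-35, his-37 and his-41 has its gas-1 libraries above all others.

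The H2B gene his-11 (II:13821809-13822177, plus strand) had 7.76, 4.94, 5.09, 5.43 and 6.13 CPM in OE, 12.4, 14.9, 16.2, 11.6 and 18.5 CPM in gas-1, and 0.830, 1.39, 1.45, 1.68 and 0.742 CPM in wild type. Its groups did not overlap in any of the 3 comparisons. It rose by 3.59 ± 0.29 on the log2 scale in gas-1 against wild type (SE, adjusted p = 1.79e-06, edgeR's quasi-likelihood test with Benjamini-Hochberg adjustment, as for all adjusted p-values here). The other 2 H2B genes of the array, his-15 and his-44, are equal copies that ran from 0 to 1.95 CPM in OE, from 0.0828 to 3.05 CPM in gas-1 and from 0 to 0.492 CPM in wild type. Their log2 change of 3.12 ± 1.27 did not pass the threshold (adjusted p = 0.0841).

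The H2A genes his-12 (II:13821198-13821581, minus strand) and his-43 (II:13827326-13827709, plus strand) are the nearly equal pair of the array. His-12 had 5.11, 2.27, 5.84, 2.29 and 4.46 CPM in OE, 15.9, 21.5, 15.9, 13.95 and 27.5 CPM in gas-1, and 0.623, 1.01, 2.998, 1.12 and 0.456 CPM in wild type. His-43 had the same values except 0 CPM in gas-1 library 2 and 0 CPM in wild type library 3. All gas-1 libraries were above all others for his-12, while wild type library 3 overlapped the OE libraries.

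For gas-1 against wild type, his-12 changed by 3.88 ± 0.48 on the log2 scale (adjusted p = 6.23e-05) and his-43 by 4.56 ± 1.05 (adjusted p = 0.00778). The call of his-43 held in 23 of 27 alternatives, over which its log2 change ran from 2.04 to 6.33, and its adjusted p was 0.680 with a germline covariate and 0.247 with limma-voom. Summed, the pair stood at 10.2, 4.54, 11.7, 4.58 and 8.92 CPM in OE, 31.8, 21.5, 31.8, 27.9 and 54.99 CPM in gas-1, and 1.25, 2.02, 2.998, 2.24 and 0.913 CPM in wild type. The 3 groups of the summed pair did not overlap, and its log2 change in gas-1 against wild type was 4.16 ± 0.39 (adjusted p = 5.33e-06), in a fit chosen after the split of the pair was seen. Per length, his-12 averaged 17.7 ± 6.70 TPM in OE, 91.96 ± 20.6 TPM in gas-1 and 6.96 ± 5.65 TPM in wild type (SD, n = 5 each). These means include 111 TPM in gas-1 library 2 and 16.8 TPM in wild type library 3, where his-12 was given nearly all counts of the pair. In the other libraries its counts equal those of his-43, so the level of his-12 alone cannot be read in any library. The rank of his-12 among the histone genes in gas-1, where his-72 averaged 81.95 TPM and his-41 81.4 TPM, is therefore not read as a result. The array's other H2A gene, his-16, ran from 0 to 4.41 CPM in OE, from 0 to 4.37 CPM in gas-1 and from 0 to 1.25 CPM in wild type, and its log2 change of 2.16 ± 1.30 did not pass the threshold (adjusted p = 0.236). A non-coding gene, ZK131.14, overlaps his-16 by 150 bases.

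The H3 gene his-25 (II:13824849-13825259, minus strand) had 10.9, 6.05, 9.71, 9.84 and 9.47 CPM in OE, 20.6, 24.1, 21.6, 23.2 and 26 CPM in gas-1, and 1.14, 2.196, 3.14, 5.31 and 0.799 CPM in wild type. The gas-1 libraries were all above the OE libraries, which were all above the wild type libraries. It rose by 3.21 ± 0.40 on the log2 scale in gas-1 against wild type (adjusted p = 6.18e-05). It held all but a few of the H3 counts of the array.

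The H4 genes his-10, his-14 and his-26, equal copies, each had 0.582, 0.698, 0.848, 0.594 and 0.499 CPM in OE, 1.13, 2.37, 2.26, 1.94 and 1.91 CPM in gas-1, and 0.467, 0.314, 0.0937, 0.280 and 0.171 CPM in wild type. Again no libraries of different groups overlapped. The log2 change of each in gas-1 against wild type was 2.84 ± 0.60 (adjusted p = 0.00481). With the 3 copies summed it was 2.83 ± 0.44 (adjusted p = 0.000461).

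The 4 tested genes other than histones that lie within 20000 bases of the array, namely F08G2.4, F08G2.5, F08G2.7 and ZK131.11, had log2 changes of -0.37 to 0.89 in gas-1 against wild type. By edgeR's quasi-likelihood test none of the 4 was called in any of the 3 comparisons. Their log2 changes were -1.36 to 0.70 in OE against gas-1 and -1.06 to 0.69 in OE against wild type.

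**Figure D3:**
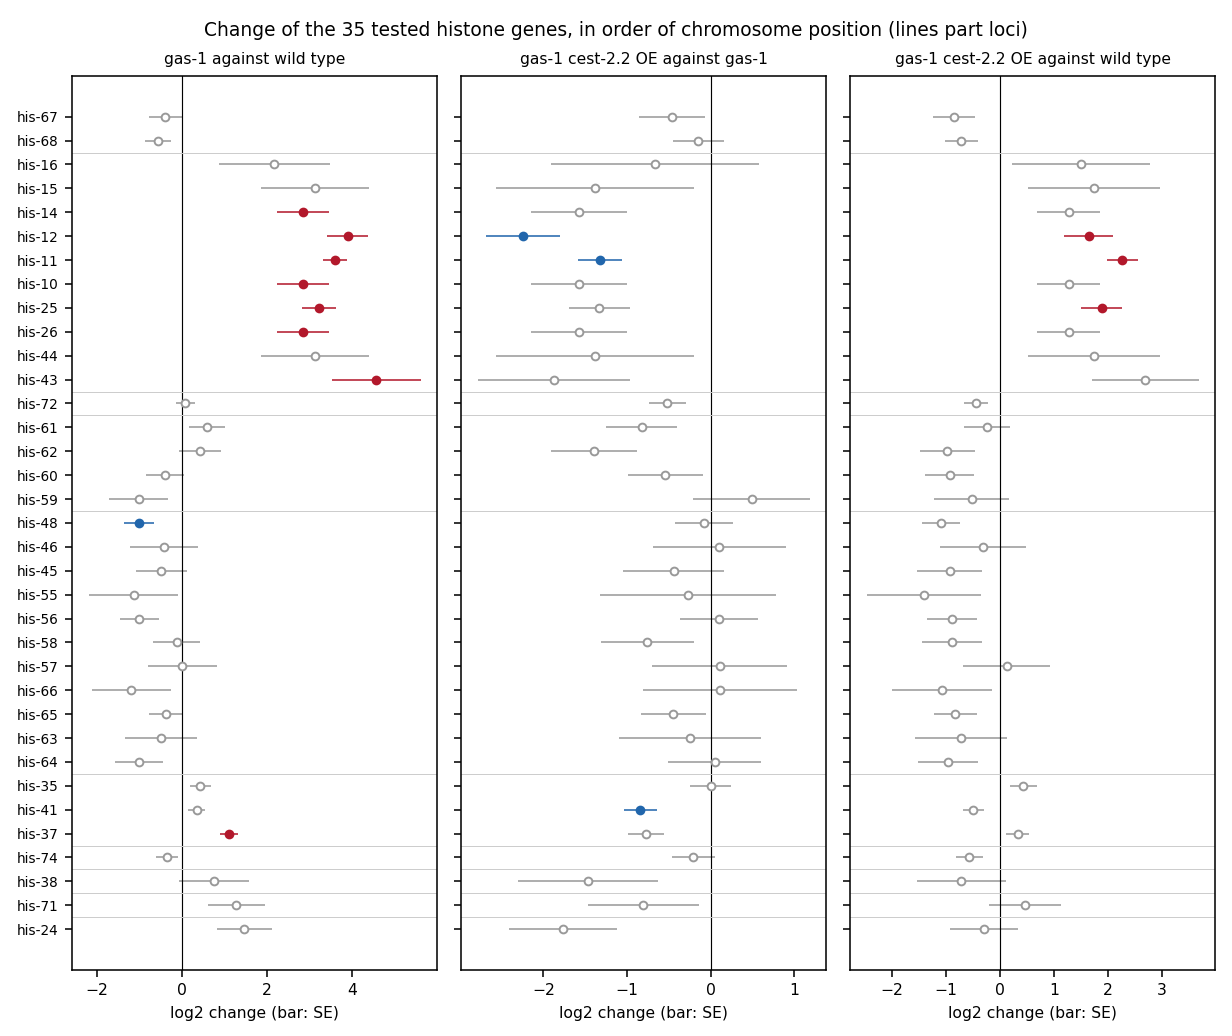
Log2 change (horizontal axes, points) with its standard error (bars) for the 35 tested histone genes in order of chromosome position from top to bottom, with grey lines between loci, for gas-1 against wild type, gas-1 cest-2.2 OE against gas-1, and gas-1 cest-2.2 OE against wild type. Filled red points rose and filled blue points fell at an adjusted p under 0.05. The filled red points in the comparisons against wild type belong to the chromosome II array, his-16 to his-43, except his-37 in gas-1 against wild type.

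A locus on chromosome V holds the H2A gene his-35, the H2B gene his-41 and the H4 gene his-37, which lie within 2949 bases of each other (V:9544659-9547607) and have introns. Its summed level was 63.6, 35.4, 54.8, 53.9 and 63.5 CPM in OE, 80.0, 80.3, 107, 78.1 and 93.3 CPM in gas-1, and 49.5, 44.5, 53.8, 70.5 and 40.3 CPM in wild type. All gas-1 libraries were above all libraries of the other two groups, and OE overlapped wild type.

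His-37 (V:9547105-9547607, plus strand) had the highest level of all histone genes per length, at 113 ± 14.6 TPM in OE, 213 ± 32.8 TPM in gas-1 and 115 ± 15.3 TPM in wild type (SD, n = 5 each). By library it had 36.99, 19.8, 31.1, 33.6 and 33.3 CPM in OE, 45.4, 50.8, 69.3, 44.6 and 54.9 CPM in gas-1, and 21.7, 20.7, 24.8, 37.9 and 18.8 CPM in wild type. All gas-1 libraries lay above all others, and the OE and wild type libraries were mixed. It rose by 1.10 ± 0.22 on the log2 scale in gas-1 against wild type (adjusted p = 0.00285). The gene nstp-10 overlaps it by 6 bases on the other strand, and its log2 change was 0.03 ± 0.14 (adjusted p = 0.910).

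His-41 (V:9545536-9546264, plus strand) had 14.7, 9.36, 13.3, 14.3 and 20.5 CPM in OE, 25.8, 22.9, 29.3, 23.3 and 28.1 CPM in gas-1, and 19.9, 17.7, 23.6, 24.4 and 16.2 CPM in wild type. The OE libraries were all below the gas-1 libraries, and wild type overlapped both. Its change in gas-1 against wild type was 0.35 ± 0.20 (adjusted p = 0.210). The gene C50F4.6 overlaps it by 173 bases on the same strand, with a log2 change of -0.38 ± 0.28 in gas-1 against wild type (adjusted p = 0.334). His-35 ran from 6.02 to 11.8 CPM in OE, from 6.54 to 10.3 CPM in gas-1 and from 5.25 to 8.21 CPM in wild type. Its log2 change was 0.43 ± 0.25 (adjusted p = 0.224).

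The largest histone cluster on chromosome IV holds 12 genes over 83372 bases (IV:11324056-11407427), with 3 genes for each core histone. Its summed level was 34.7, 49.6, 29.02, 12.04 and 37.4 CPM in OE, 33.3, 44.6, 27.8, 54.5 and 36.8 CPM in gas-1, and 70.99, 57.1, 72.4, 45.4 and 58.1 CPM in wild type. Of its 11 tested genes only his-48 passed the threshold in gas-1 against wild type, where 21.4% of all tested genes did.

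The H2B gene his-48 (IV:11324745-11325116, plus strand) had 4.46, 5.70, 3.11, 4.75 and 6.68 CPM in OE, 2.26, 6.23, 3.57, 8.66 and 5.38 CPM in gas-1, and 13.5, 8.75, 15.1, 7.37 and 8.10 CPM in wild type. Gas-1 library 4 lay within the wild type range, while all OE libraries lay below it. It fell by 1.02 on the log2 scale, with an SE of 0.35, in gas-1 against wild type (adjusted p = 0.0481). The call held in 10 of 28 alternatives, and the adjusted p was 0.139 without wild type replicate 1. The H4 pair his-46 and his-56, summed, had 1.70 to 4.15 CPM in OE, 1.66 to 5.19 CPM in gas-1 and 3.92 to 5.72 CPM in wild type, and its summed log2 change was -0.76 ± 0.38 (adjusted p = 0.156). The H2A gene his-57 shares 379 bases with klp-12 on the other strand, and the libraries keep no strand, so their reads cannot be told apart where they overlap.

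The 4 genes his-59 to his-62 on chromosome IV (IV:7485834-7488659) had a summed level of 5.34 to 18.95 CPM in OE, 14.01 to 27.8 CPM in gas-1 and 17.3 to 26.2 CPM in wild type. None of the 4 was called in gas-1 against wild type, where their log2 changes ran from -1.02 to 0.58. None had an unadjusted p under 0.05 there, and DESeq2 called none.

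His-67 for H4 and his-68 for H2A lie beside each other on chromosome I (I:9988452-9989515). His-68 had 17.01, 23.02, 11.5, 7.89 and 14.9 CPM in OE, 12.9, 30.1, 11.6, 15.8 and 11.8 CPM in gas-1, and 29.9, 21.96, 29.2, 19.1 and 22.02 CPM in wild type. In gas-1 only library 2 reached the wild type range. Its log2 change in gas-1 against wild type was -0.57 ± 0.30 (adjusted p = 0.175).

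The clusters of 5, 14 and 4 genes on chromosome V and of 6 genes on chromosome IV had no member with enough counts to test. The cluster of 14 genes (V:8847393-8898539), which holds the most copies, summed to 0.170 to 2.26 CPM in OE, 0 to 0.849 CPM in gas-1 and 1.56 to 3.54 CPM in wild type. All gas-1 libraries were below all wild type libraries there. With the 4 equal H2A copies his-19, his-21, his-51 and his-53 summed, they could be tested, and the log2 change in gas-1 against wild type was -3.02 ± 1.21 (adjusted p = 0.0810). The other 3 untested clusters reached at most 2.13 CPM in any library.

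The H3.3 genes encode the histone H3 that is placed in chromatin outside of DNA replication. Their summed level was 43.1, 53.4, 37.2, 27.1 and 44.1 CPM in OE, 56.7, 52.96, 39.99, 75.7 and 45.3 CPM in gas-1, and 75.5, 54.6, 48.8, 48.1 and 56.9 CPM in wild type, with overlap between all groups. His-72 and his-74 gave nearly all of it. His-72 (III:12367475-12369050) had 21.01, 29.2, 15.1, 16.4 and 21.99 CPM in OE, 30.3, 25.9, 25.1, 41.3 and 25.8 CPM in gas-1, and 38.9, 28.7, 25.5, 18.7 and 28.8 CPM in wild type. Its log2 change in gas-1 against wild type was 0.08 ± 0.22 (adjusted p = 0.825).

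His-74 (V:12659704-12660330) had 18.5, 23.8, 19.2, 10.4 and 20.04 CPM in OE, 20.7, 25.6, 12.2, 31.6 and 16.2 CPM in gas-1, and 35.1, 23.9, 22.02, 27.9 and 27.6 CPM in wild type, with a log2 change of -0.36 ± 0.26 (adjusted p = 0.318). His-71 on chromosome X was lower, at 3.62, 0.349, 2.92, 0.255 and 2.09 CPM in OE, 5.801, 1.495, 2.695, 2.801 and 3.395 CPM in gas-1, and 1.45, 2.06, 1.22, 1.49 and 0.456 CPM in wild type. Its groups overlapped, and its log2 change was 1.27 ± 0.67 (adjusted p = 0.175). His-69 had 1 count in OE library 2, 4 counts in wild type library 3 and 1 count in wild type library 5, and 0 elsewhere, while his-70 had 0 throughout.

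Neither an H3.3 gene nor his-24 was called in any comparison, by edgeR's quasi-likelihood test or by DESeq2. With edgeR's unadjusted p under 0.05 there were his-24 in gas-1 against wild type, his-24 and his-72 in OE against gas-1, and his-74 in OE against wild type. The linker histone gene his-24, of H1, had 4.20, 4.83, 2.64, 4.33 and 5.24 CPM in OE, 9.48, 8.04, 2.11, 5.60 and 47.5 CPM in gas-1, and 10.9, 4.99, 4.87, 1.87 and 3.54 CPM in wild type. Apart from gas-1 library 5, the gas-1 values lay within the wild type range. Its log2 change in gas-1 against wild type was 1.47 ± 0.64 (adjusted p = 0.106), and 0.32 without gas-1 replicate 5 (adjusted p = 0.674).

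Summed by class, each core histone was split between the array and the other loci in a way that differed between groups. The H2A genes of the array had 9.37 ± 2.64 CPM in OE, 35.8 ± 11.5 CPM in gas-1 and 2.36 ± 0.588 CPM in wild type (SD, n = 5 each), and all other H2A genes 34.8 ± 10.9 CPM in OE, 40.8 ± 7.81 CPM in gas-1 and 47.8 ± 7.36 CPM in wild type. For H2B the array had 7.25 ± 1.36 CPM in OE, 18.3 ± 2.05 CPM in gas-1 and 1.61 ± 0.709 CPM in wild type, and the other loci 29.3 ± 6.28 CPM in OE, 45.98 ± 5.64 CPM in gas-1 and 50.4 ± 9.08 CPM in wild type. For both classes the gas-1 libraries lay above all others at the array and overlapped the wild type libraries over the other loci. Over the other loci the OE libraries overlapped the wild type libraries for H2A and all lay below them for H2B.

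For H3, without the H3.3 genes, the array had 9.39 ± 1.96 CPM in OE, 23.1 ± 2.12 CPM in gas-1 and 2.62 ± 1.71 CPM in wild type, and the other loci 11.97 ± 4.53 CPM in OE, 12.5 ± 5.47 CPM in gas-1 and 21.1 ± 2.33 CPM in wild type. In every gas-1 library the array thus gave more H3 counts than all other loci, and in every OE and wild type library but 1, OE library 4, it gave fewer. Over the other loci the OE libraries all lay below the wild type libraries for H3, while gas-1 overlapped wild type. H4 was different, since the array gave only 1.93 ± 0.403 CPM in OE, 5.76 ± 1.45 CPM in gas-1 and 0.795 ± 0.428 CPM in wild type. The other H4 genes, his-37 above all, had 45.04 ± 5.85 CPM in OE, 70.9 ± 8.89 CPM in gas-1 and 50.7 ± 6.42 CPM in wild type.

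Over all 72 genes the sum was 194 ± 30.8 CPM in OE, 322 ± 30.2 CPM in gas-1 and 239 ± 27.5 CPM in wild type. Without the array it was 166 ± 32.9 CPM in OE, 239 ± 24.7 CPM in gas-1 and 232 ± 26.99 CPM in wild type (SD, n = 5 each). In CPM the gas-1 libraries were all above the wild type libraries with the array, and overlapped them without it. The OE libraries overlapped the wild type libraries with the array. Without it they all lay below them, at 113 to 192.5 CPM in OE and 210.7 to 270 CPM in wild type. In TPM the sum over all 72 genes was 399 to 825 in OE, 1042 to 1288 in gas-1 and 718 to 1193 in wild type, so gas-1 overlapped wild type also with the array. The OE libraries were all below the gas-1 libraries in both CPM sums and in that TPM sum.

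**Figure D4:**
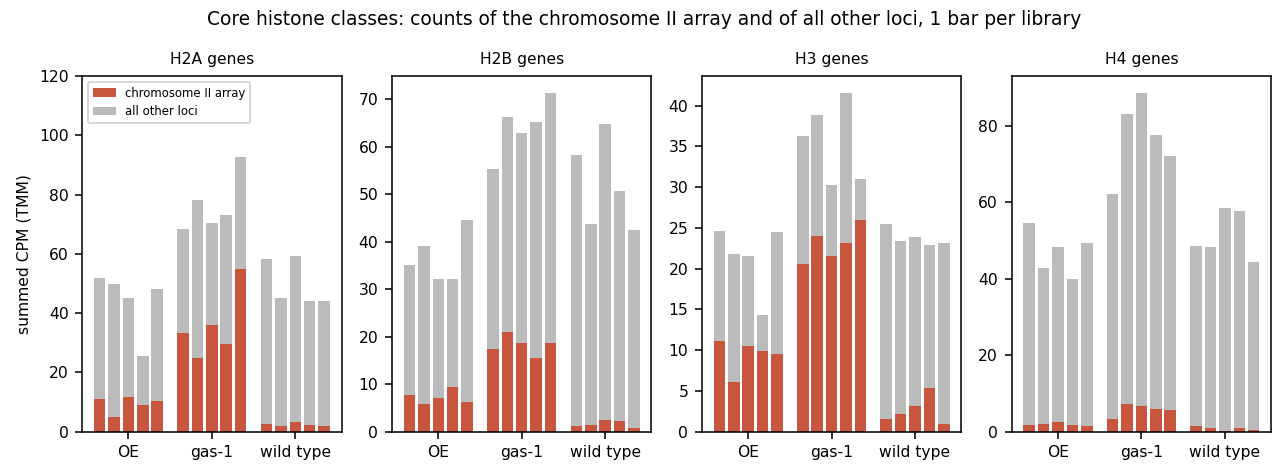
Summed CPM (vertical axes, linear, from 0) of the H2A, H2B, H3 and H4 genes, with 1 stacked bar per library, the red part for the chromosome II array and the grey part for all other loci, for gas-1 cest-2.2 OE (OE), gas-1 and wild type from left to right. The red part is tallest in the 5 gas-1 libraries of every class and makes up most of the H3 bar there, while it is the smallest part of each H4 bar.

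In gas-1 cest-2.2 OE against gas-1, no histone gene rose and 3 of the 35 tested fell, while 0.633% of all tested genes rose, 0.954% fell and 1.59% changed in either direction. The 3 were his-11 and his-12 of the chromosome II array and his-41. The median log2 change over the 35 members was -0.66, against 0.03 over all tested genes. It was -0.52 with equal copies summed and -0.47 with a minimum count of 30. Without a filter on low counts it was -0.07, against 0 over all genes of that fit. The comparison shares its gas-1 libraries with that of gas-1 against wild type, so the signs in both are not independent.

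His-11 fell by 1.32 on the log2 scale (SE 0.26, adjusted p = 0.0170), and his-12 fell by 2.24 (SE 0.45, adjusted p = 0.0166). The summed pair of his-12 and his-43 had a log2 change of -2.07 ± 0.36 (adjusted p = 0.00544). His-41 fell by 0.84 (SE 0.20, adjusted p = 0.0457), and it kept an adjusted p under 0.05 in 9 of 28 alternatives. The log2 changes of the 10 tested array genes ran from -2.24 to -0.66. Their signs are again not read as a result, since a gene of low counts can pass the filter through gas-1, where it is high.

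The H3 gene his-25 had a log2 change of -1.33 ± 0.37 (adjusted p = 0.0828) and his-37 one of -0.78 ± 0.21 (adjusted p = 0.0828), and neither passed the threshold although their groups did not overlap. The trio his-10, his-14 and his-26 had -1.57 ± 0.57 (adjusted p = 0.189). In 8 members all OE libraries were below all gas-1 libraries, namely his-10, his-11, his-12, his-14, his-25, his-26, his-37 and his-41, and 2.41% of all tested genes showed this. Of these his-10, his-14 and his-26 are 1 measurement. No member had all OE libraries above all gas-1 libraries, as 1.35% of tested genes did. DESeq2 called 8 members lower and none higher, among 4.86% of all tested genes, and 11 members had an unadjusted p under 0.05, among 15.9% of all tested genes. Among the remaining genes his-24 had -1.77 ± 0.65 (adjusted p = 0.191; -0.60 without gas-1 replicate 5), his-71 had -0.81 ± 0.66 (adjusted p = 0.605), his-72 had -0.52 ± 0.22 (adjusted p = 0.274) and his-74 had -0.21 ± 0.26 (adjusted p = 0.752). The 11 tested genes of the large chromosome IV cluster had a median of -0.08, and none was called by edgeR's quasi-likelihood test, by DESeq2 or at an unadjusted p under 0.05.

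In gas-1 cest-2.2 OE against wild type, 3 of the 35 tested histone genes rose and none fell, while 7.09% of all tested genes rose, 2.24% fell and 9.33% changed in either direction. They were his-11, his-12 and his-25, all of the chromosome II array. His-11 rose by 2.27 ± 0.28 on the log2 scale (adjusted p = 0.000226), his-25 by 1.88 ± 0.38 (adjusted p = 0.00675) and his-12 by 1.64 ± 0.45 (adjusted p = 0.0315). For his-12 the adjusted p was 0.404 without the wild type libraries 1, 2 and 4, and it was under 0.05 in 18 of 28 alternatives. The summed pair of his-12 and his-43 rose by 2.09 ± 0.37 (adjusted p = 0.00292). On log2(TPM + 1), which moves the median of all genes by -0.33, 3 of 39 tested members rose and 5 fell, with 1427 genes called in all.

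The log2 changes of the 10 tested array genes, whose signs are again not read as a result, ran from 1.27 to 2.69 in OE against wild type. In 6 of them all OE libraries lay above all wild type libraries, as in 4.19% of all tested genes. Of these his-10, his-14 and his-26 are 1 measurement. Another is his-43, which was given 0 CPM in wild type library 3, where its nearly equal copy his-12 had 2.998 CPM and overlapped the OE libraries. The separation of his-43 alone is therefore not read as a result, while the summed pair did not overlap. The median over all 35 members was -0.44, against -0.04 over all tested genes. It was -0.529 with equal copies summed and -0.725 without a filter on low counts. Over the 11 tested genes of the large chromosome IV cluster the median was -0.90, and his-48 had a log2 change of -1.09 ± 0.35 (adjusted p = 0.0598) with all OE libraries below all wild type libraries, as in 2.23% of tested genes. His-37, at 0.32 ± 0.21 (adjusted p = 0.360), and his-41, at -0.49 ± 0.20 (adjusted p = 0.129), did not pass the threshold. The 5 H3.3 genes and his-24 held no call, with log2 changes of -0.57 to 0.47 for the tested ones. At an unadjusted p under 0.05 there were 7 array genes higher and 5 members of other loci lower, while 25.8% of all tested genes passed that level. DESeq2 called 4 members higher and 1 lower, with 14.5% of all tested genes called.

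The array's gain in gas-1 intestines was set beside genes that act with histones, from lists drawn up with earlier results of these data known. Of 39 genes for DNA replication and S phase, 37 were tested in gas-1 against wild type, and 17 fell and 0 rose, with a median log2 change of -0.68, while 8.63% of all tested genes fell, 12.8% rose and their median was -0.11. They include rnr-1, a ribonucleotide reductase subunit (-0.95 ± 0.19, adjusted p = 0.00275), mcm-7, of the replicative helicase (-0.92 ± 0.21, adjusted p = 0.00738), and dpl-1, the DP partner of E2F (-0.76 ± 0.17, adjusted p = 0.00760). In OE against gas-1 none of the 37 was called by edgeR's quasi-likelihood test, with 6 higher and none lower at an unadjusted p under 0.05 and 3 higher by DESeq2, and the median was 0.25. In OE against wild type 1 fell, rnr-2, the other ribonucleotide reductase subunit (-0.82 ± 0.22, adjusted p = 0.0258).

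Of 19 genes for histone chaperones and histone mRNA processing, 16 were tested, and in gas-1 against wild type 7 fell and 0 rose, with a median of -0.50 against -0.11 over all tested genes. The 3 of smallest adjusted p were hira-1, which places H3.3 in chromatin (-0.68 ± 0.17, adjusted p = 0.0111), nasp-1 (-0.77 ± 0.21, adjusted p = 0.0176) and nasp-2 (-0.84 ± 0.23, adjusted p = 0.0200), which are relatives of the H3 and H4 chaperone NASP. The stem-loop binding protein gene cdl-1 averaged 69.5 ± 28.4 CPM in OE, 73.2 ± 8.99 CPM in gas-1 and 112 ± 15.7 CPM in wild type (SD, n = 5 each). Its log2 change of -0.61 ± 0.24 in gas-1 against wild type did not pass the threshold (adjusted p = 0.0723). In OE against gas-1 none of the 16 was called by edgeR's quasi-likelihood test or DESeq2, with 3 higher at an unadjusted p under 0.05, and in OE against wild type 1 fell, hmg-4, a subunit of the chaperone FACT (-0.71 ± 0.20, adjusted p = 0.0370).

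Of 12 histone variant and linker genes named outside the his- series, 10 were tested, and in gas-1 against wild type only hil-4, of the H1 family, was called (-0.64 ± 0.22, adjusted p = 0.0470). The H2A.Z gene htz-1 averaged 73.2 ± 22.3 CPM in OE, 80.8 ± 16.3 CPM in gas-1 and 97.7 ± 18.2 CPM in wild type, with a log2 change of -0.27 ± 0.21 in gas-1 against wild type (adjusted p = 0.362). The centromeric H3 gene hcp-3 averaged 37.3 ± 8.82 CPM in OE, 29.4 ± 8.55 CPM in gas-1 and 41.5 ± 9.76 CPM in wild type, with a log2 change of -0.50 ± 0.23 (adjusted p = 0.121). By edgeR's quasi-likelihood test none of the 10 was called in OE against gas-1, where 0 had an unadjusted p under 0.05 and DESeq2 called 0. In OE against wild type edgeR and DESeq2 also called 0, and 2 were lower at an unadjusted p under 0.05.

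Markers of the gonad were found in all libraries of these dissected intestines. The 15 germline markers summed to 1747 to 2748 CPM in OE, 1105 to 2126 CPM in gas-1 and 2016 to 2483 CPM in wild type, and none was at 0 in all libraries. In gas-1 against wild type 5 of them fell and 0 rose, with a median log2 change of -0.62, where 8.63% of all tested genes fell and the median was -0.11. The 12 oocyte and early embryo markers summed to 4154 to 7575 CPM in OE, 3059 to 5077 CPM in gas-1 and 6364 to 6930 CPM in wild type, and 6 fell and 0 rose in gas-1 against wild type, with a median of -0.67. Of the 10 sperm markers 4 were at 0 in every library, and the sum of all 10 was at most 1.04 CPM in OE, 1.06 CPM in gas-1 and 1.04 CPM in wild type.

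Of the 11 intestine markers 5 rose and 0 fell in gas-1 against wild type, with a median log2 change of 0.98 against -0.11 over all tested genes, and 5 rose and 0 fell in OE against wild type. The called array genes and his-37 were higher in gas-1 libraries, in which called genes of the germline, oocyte and S phase lists were lower and called intestine markers higher, and the part of gonad and intestine RNA in the histone results was not tested. With the mean level of the germline markers added to the fit as a covariate, his-11, his-12 and his-25 were called in gas-1 against wild type, while his-10, his-14 and his-26 (adjusted p = 0.0785), his-43 (adjusted p = 0.680) and his-37 (log2 change 0.71, adjusted p = 0.298) were not. Over all genes that fit called 164 in gas-1 against wild type, where the fit without the covariate called 2268. In OE against gas-1 the fit with the covariate called no member and 129 genes in all, where the fit without it called 168. There his-11 had a log2 change of -1.22 (adjusted p = 0.0788) and his-12 one of -2.16 (adjusted p = 0.0601). The 10 body wall muscle markers summed to 168 to 503 CPM in OE, 242 to 418 CPM in gas-1 and 226 to 2668 CPM in wild type, with 5 lower and 0 higher in gas-1 against wild type. Of the 5 pharynx, 7 neuron, 3 hypodermis and 4 somatic gonad markers tested, 1 neuron marker rose and 0 fell in gas-1 against wild type. Without the wild type libraries 1, 2 and 4, in which muscle markers were high, 7 of 40 tested members were called higher and none lower in gas-1 against wild type. That fit called 556 genes in all, where the fit of all libraries called 2268. In pooled tissue of this kind, a change in the number of cells of a type and a change in RNA per cell cannot be told apart.

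**Figure D5:**
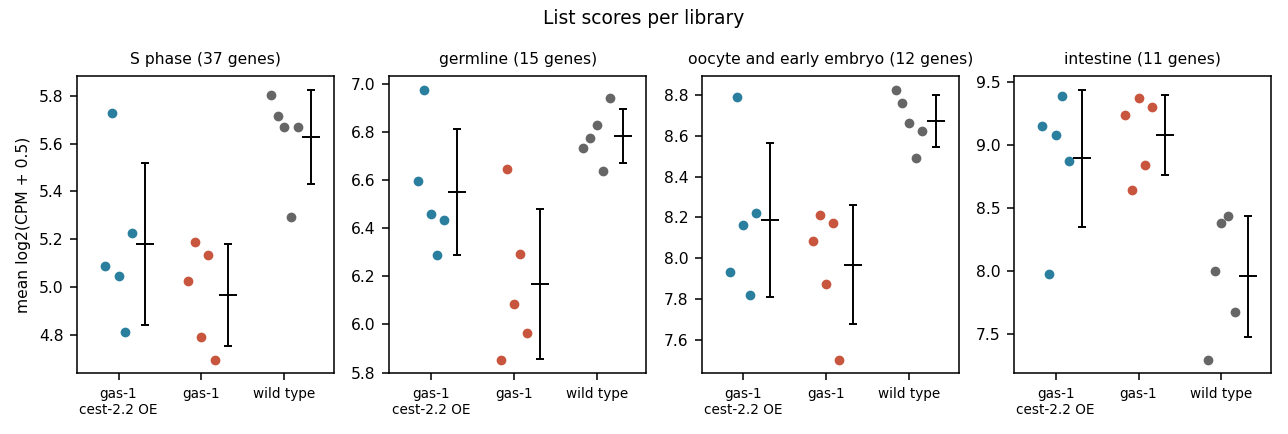
Mean log2(CPM + 0.5) (vertical axes, log scale, not from 0) over the tested genes of 4 lists, with 1 point per library, a bar at the mean and whiskers of 1 SD, for gas-1 cest-2.2 OE, gas-1 and wild type from left to right. The S phase and oocyte scores of the 5 gas-1 libraries are all below those of wild type, and their intestine scores are all above. The germline scores are below those of wild type in every gas-1 library except library 2.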

How the data were processed

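Per the file headers, each library's deposited file gives estimated counts (expected counts, not normalized), TPM and transcript lengths in bases (another unit). The authors used kallisto 0.44.0, bcl2fastq 2.20 and build WBcel235, per the submitters' processing notes, and the annotation release is not given in the sources used here. The labels describe Smart-seq2 libraries without strand information.

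Targets carry integers, which were taken as positions in the transcript map, the top line being 0. Under that reading 99.95% of 27886 non-coding transcripts had the length of Ensembl release 115, and with the map moved by 1 line 51.83% did. All gene names rest on it. The authors' own table of comparisons was not used.

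Estimated counts were summed per gene and rounded. edgeR 4.0.16 in R 4.3.3 (TMM, filterByExpr with a minimum count of 10, quasi-likelihood F test, 1 fit of 15 libraries with 12 residual degrees of freedom, common biological coefficient of variation 0.527) tested 10585 genes. The call threshold was 0.05 after Benjamini-Hochberg adjustment across all of them, and the tests were tried on simulated counts. Errors are standard errors of the fit unless given as SD. TPM is used for levels between genes. The members and lists were chosen with earlier results of these data known. Values per library are given for members called in any comparison, the H3.3 genes, his-24 and the 6 members of highest mean TPM. From each list of related genes at most 3 called genes are named, with htz-1, cdl-1 and hcp-3. Alternatives were DESeq2 1.42.0, limma 3.58.1 (voom, and log2 TPM with a pseudocount of 1 or 0.1), RLE scaling, other count filters, fits on fewer libraries, a replicate block, a germline covariate and summed copies. Equal replicate numbers were checked as pairs by the correlation of residuals, which exceeded 0.1 in 0, 2 and 1 of 5 pairs in the 3 comparisons, so samples were treated as unpaired.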

Additional observations from a re-analysis of the deposited data

Results flagged for a closer look

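A sample far from the other 4 of its group was found in 6 of 65 groups of 5 checked, by the gap to the nearest sample over the range, and chance alone gives about 1 in 20. These were his-24 in gas-1 library 5 (47.5 CPM, others 2.11 to 9.48 CPM), his-68 in gas-1 library 2 (30.1 CPM, others 11.6 to 15.8 CPM) and the sum of the chromosome II array in gas-1 library 5 (105 CPM, others 74.04 to 83.1 CPM). In OE library 2 his-25 was low (6.05 CPM, others 9.47 to 10.9 CPM), and his-69 was at 0.0581 CPM, from 1 count, with 0 in the others. In wild type library 3 his-12 was at 3 CPM, with 0.456 to 1.12 CPM in the others, and that library is one in which its nearly equal copy his-43 received no count.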

How the results depend on the processing

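Calls of his-11, his-12 and his-25 in gas-1 against wild type held in all 28 alternatives, as did those of his-11 and his-25 in OE against wild type. The fit with nearly equal copies summed was chosen after seeing the data. Fits on TPM, with other count filters or on fewer libraries tested other sets of genes, so a number of genes called is not a share. Members called are given here with the number of all genes called in the same fit. In gas-1 against wild type these were 9 of 35 tested members (2268 genes). They were 14 of 39 on log2(TPM + 1) (2839 genes) and 3 of 35 with the germline covariate (164 genes). In OE against gas-1 they were 3 of 35 (168 genes), and 8 of 35 with DESeq2 (514 genes). They were 8 of 39 on log2(TPM + 1) (339 genes), 8 of 39 on log2(TPM + 0.1) (280 genes) and 0 of 35 with the covariate (129 genes). In OE against wild type they were 3 of 35 (988 genes), and 5 of 35 with DESeq2 (1535 genes). They were 8 of 39 on log2(TPM + 1) (1427 genes) and 7 of 39 on log2(TPM + 0.1) (1235 genes). Leaving out 1 library gave 8 to 9, 1 to 4 and 2 to 4 calls in the 3 comparisons, with 1 in OE against gas-1 without gas-1 replicate 3 or without OE replicate 2. Over all genes those fits called 1319 to 2489, 85 to 380 and 512 to 1630. With the replicate number as a block the calls were 8, 1 and 3, with 2139, 102 and 753 over all genes. OE against gas-1 then lost his-11 (adjusted p = 0.0709) and his-41 (adjusted p = 0.0694), and gas-1 against wild type lost his-48 (adjusted p = 0.0734). The replicate numbers were not found to pair the samples. The causes of these differences were not tested.

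Signs turned only in changes that passed the threshold neither as reported nor in the alternative. In gas-1 against wild type his-72 had -0.15 on log2(TPM + 1), -0.15 on log2(TPM + 0.1) and -0.073 to 0.28 with 1 library left out, and with the covariate his-41 had -0.098, his-68 0.38, his-71 -0.24 and his-74 0.16. In OE against gas-1 his-48 had 0.086 with limma-voom and -0.27 to 0.19 with 1 library left out, his-68 had -0.38 to 0.19 with 1 library left out, and his-71 had 0.17 with the covariate. In OE against wild type his-37 had -0.0344 on log2(TPM + 1) and -0.0346 on log2(TPM + 0.1), his-71 had -0.20 on log2(TPM + 1), -0.40 on log2(TPM + 0.1) and -0.069 with the covariate, and his-24 had 0.031 without wild type replicates 1, 2 and 4 and -0.51 to 0.19 with 1 library left out.

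Depth limits the clusters without a tested member, which hold few counts per library, and equal copies cannot be separated at any depth of these files.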
